A study of Mus musculus with 32 samples.

Results

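Kruppel-like factors (KLFs) are transcription factors that bind GC-rich and CACCC sequences through zinc fingers at their carboxyl end, and several of them decide how a vascular smooth muscle cell behaves. 10 genes of the family, Klf2, Klf3, Klf4, Klf5, Klf6, Klf7, Klf9, Klf10, Klf13 and Klf15, were taken by name from 23284 genes counted in each of a pair of mouse RNA-seq tables, and all 10 passed the filter on low counts in arteries and in culture. The tables list 7 other Klf genes, which are described with the related factors. Oct4 (Pou5f1) knockout (KO) was compared with wild type (WT) in both tables. The arteries were brachiocephalic arteries with atherosclerotic lesions from C57BL/6 mice fed a Western diet for 18 weeks, from 4 KO and 4 WT animals, and are labelled as a mixture of cell types. The cultures were primary aortic smooth muscle cells, 1 line from KO and 1 from WT mice, which received vehicle or the oxidized phospholipid POVPC and were kept in normoxia or at 1% oxygen (hypoxia). Each of the 8 culture groups has 3 libraries. The KO genotype is labelled as a loss of both Oct4 alleles, and the labels used here name no driver of the deletion. With 1 line per genotype, genotype and cell line cannot be told apart in culture, and nothing in the labels says that the 3 libraries of a group are separate cultures, so p-values measure only the spread between libraries, which may be technical.

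As background, KLF4 lowers contractile gene expression in smooth muscle cells by opposing serum response factor and myocardin, and with Oct4 it belongs to the set of factors used to reprogram somatic cells to pluripotency. KLF5 promotes smooth muscle proliferation and matrix gene expression, and is known to be scarce in quiescent vessels and to appear after injury. KLF2 is induced by laminar flow through ERK5 and MEF2 in endothelium, KLF10 was found as a TGF-beta-inducible early gene, KLF6 is an early gene of injury and stress, KLF9 and KLF15 respond to glucocorticoids, and KLF15 is high in quiescent muscle. KLF3 is a repressor that recruits CtBP, KLF13 is best known in lymphocytes and heart, and KLF7 in neurons and fat.

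Libraries held 6526099 to 11137414 counts in arteries and 8063121 to 30231799 in culture. Pou5f1 had 0 to 3 counts in every library, so it does not check the genotype labels. WT POVPC hypoxia libraries 2 and 1 and KO vehicle hypoxia library 3 were the shallowest in culture. They also had the most multimapping alignments per assigned one of all libraries (9.24, 5.79 and 8.07). KO vehicle normoxia library 3 stood apart in its group, with 8.02% of counts on the ribosomal gene Rn45s against 1.29% and 1.59%, and 0.793 multimapping alignments per assigned one against 2.84 and 3.88. KO POVPC hypoxia library 1 did so too (8.31% on Rn45s against 3.75% and 4.56%, and 0.988 multimapping alignments against 2.75 and 2.10). WT POVPC normoxia libraries 1 and 3 held 9.36% and 11.1% on Rn45s and library 2 held 3.23%. Results that rest on these libraries are given without them mainly where leaving them out changed a call. Other results are given only with them, such as the Klf7 and Klf13 differences between the lines in vehicle and normoxia. Of the defining smooth muscle genes, Acta2 (smooth muscle actin) stood at 263 ± 26 CPM (SD, n = 3) in WT and 58.3 ± 3.6 in KO cells in vehicle and normoxia, and Myh11 (smooth muscle myosin) at 5.15 ± 0.39 and 0.243 ± 0.24. CPM are counts scaled to the depth of the library with edgeR's TMM factors. Summed endothelial markers reached 1.16 to 4.95 CPM and macrophage markers 9 to 63.9 CPM over the culture libraries, with 1 to 4 of the 8 endothelial and 1 to 5 of the 9 macrophage genes without a count in a group. A fibroblast list that includes collagen and decorin stood at 4967 to 5957 CPM in vehicle and normoxia and at 1120 to 1282 in vehicle and hypoxia, and its part in the values below was not tested.

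Levels can be compared between genes only per length of transcript, so they are given as RPKM (CPM per kilobase of annotated exons). Klf6 had the highest RPKM of the 10 genes in 8 of the 10 groups and Klf4 in the other 2, the KO cells in normoxia with vehicle and with POVPC. In arteries Klf6 stood at 57.8 ± 5.7 (KO, SD, n = 4) and 51.8 ± 4.7 RPKM (WT), followed by Klf9 at 30.4 ± 2.1 and 32.0 ± 2.8, while Klf5 was lowest at 0.695 ± 0.49 and 1.14 ± 0.31. In culture Klf15 was lowest in 7 of 8 groups, and Klf2 in the WT cells in vehicle and normoxia. Spans across the 8 culture groups were taken from group means of log2 CPM with 0.5 CPM added, which shrinks them for genes at low levels. They were 10.5-fold for Klf2, 9.94-fold for Klf15, 5.11-fold for Klf4 and 3.82-fold for Klf6, and between 1.92-fold (Klf3) and 3.24-fold (Klf5) for the other 6. Mean CPM itself ran from 1.42 to 19.6 for Klf2 and from 0.336 to 7.75 for Klf15, so by mean CPM Klf15 spanned more than Klf2. Klf2 and Klf6 were highest in WT cells with POVPC in hypoxia, Klf3, Klf4 and Klf7 in KO cells with POVPC in hypoxia, Klf5 and Klf10 in WT cells with vehicle in hypoxia, and Klf9, Klf13 and Klf15 in normoxia.

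**Figure D1:**
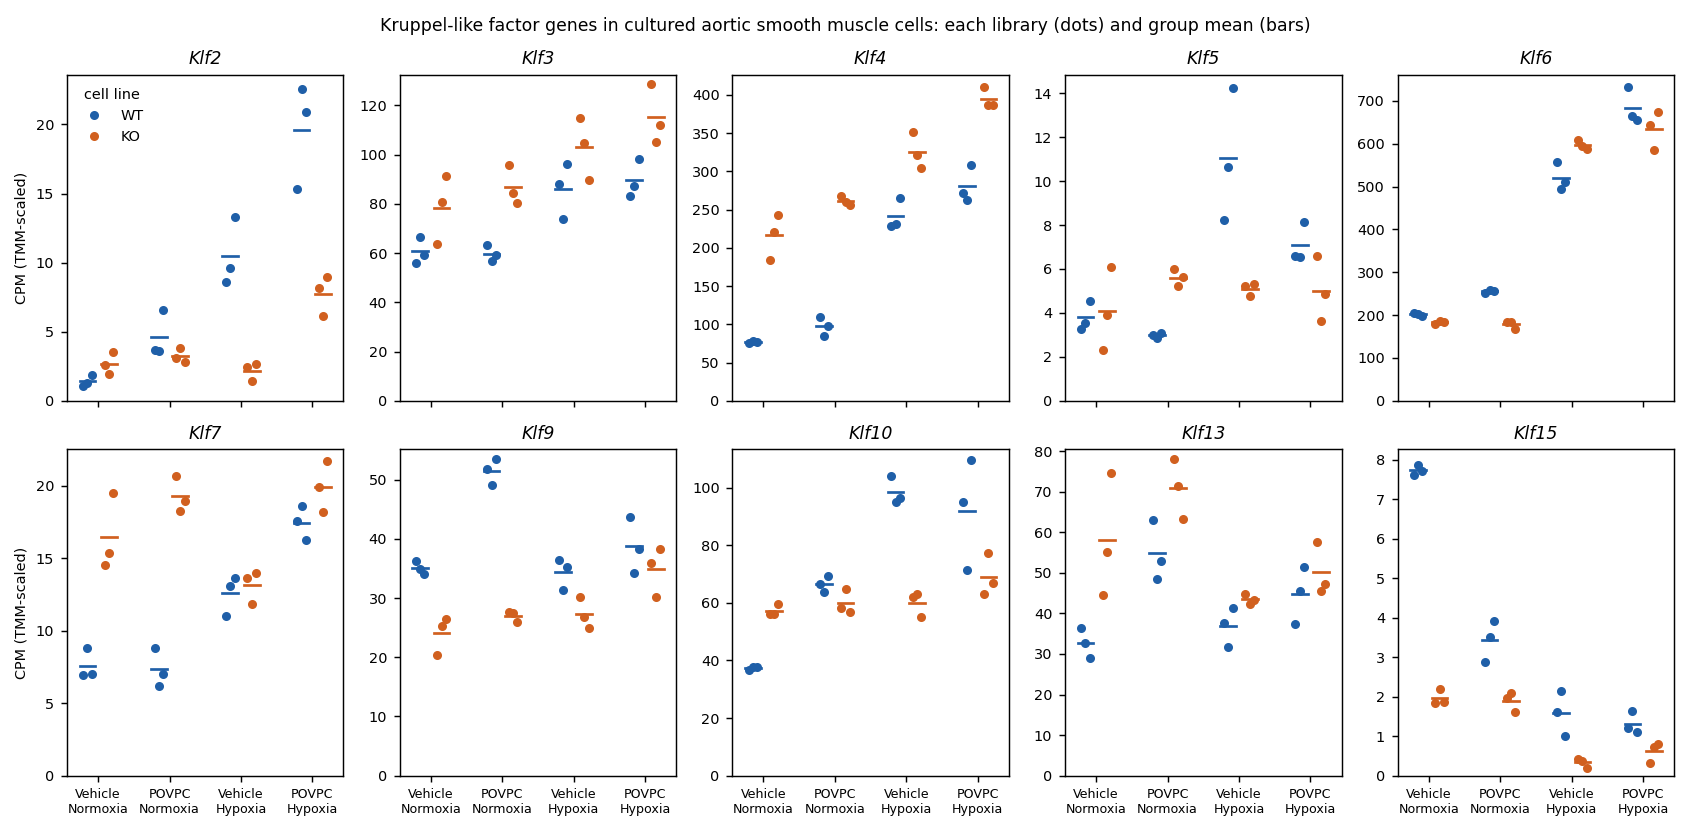
CPM of each of the 10 genes (vertical axis, from 0) in every culture library (dots) with the group mean (bars), by treatment and oxygen (horizontal axis), WT line in blue and KO line in orange. Klf4 is lowest in the WT line in normoxia, Klf15 is highest in the WT line with vehicle in normoxia, and Klf2 is highest in the WT line in hypoxia.

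The upstream 250 bases of the 4 genes with the widest range in culture are shown because they are the members whose levels differ most between the groups. They come from RefSeq on build GRCm38.p6, 5′ to 3′ on the gene's strand, where 8 of the 10 genes have an entry (all but Klf5 and Klf10). Capitals mark CACGTG, the E-box, or in Klf2 the A/T-rich core TAAATTTA of a site that MEF2 factors bind.
Klf2 (chr8:72318812-72319061, + strand): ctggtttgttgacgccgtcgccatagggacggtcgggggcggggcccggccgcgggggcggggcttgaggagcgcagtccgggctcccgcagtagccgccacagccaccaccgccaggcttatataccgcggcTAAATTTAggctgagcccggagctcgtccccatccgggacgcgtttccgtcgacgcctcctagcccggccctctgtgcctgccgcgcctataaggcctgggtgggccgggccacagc
Klf4 (chr4:55532476-55532725, - strand): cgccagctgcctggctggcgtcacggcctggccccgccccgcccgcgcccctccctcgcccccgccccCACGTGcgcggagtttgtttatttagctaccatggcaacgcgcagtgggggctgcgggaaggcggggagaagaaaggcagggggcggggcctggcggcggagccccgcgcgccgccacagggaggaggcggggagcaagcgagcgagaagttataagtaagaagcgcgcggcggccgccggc
Klf6 (chr13:5861239-5861488, + strand): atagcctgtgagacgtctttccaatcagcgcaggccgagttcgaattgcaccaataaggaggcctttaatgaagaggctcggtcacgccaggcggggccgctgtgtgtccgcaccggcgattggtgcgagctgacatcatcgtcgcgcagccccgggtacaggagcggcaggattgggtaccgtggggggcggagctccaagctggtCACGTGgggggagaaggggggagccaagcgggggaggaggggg
Klf15 (chr6:90462326-90462575, + strand): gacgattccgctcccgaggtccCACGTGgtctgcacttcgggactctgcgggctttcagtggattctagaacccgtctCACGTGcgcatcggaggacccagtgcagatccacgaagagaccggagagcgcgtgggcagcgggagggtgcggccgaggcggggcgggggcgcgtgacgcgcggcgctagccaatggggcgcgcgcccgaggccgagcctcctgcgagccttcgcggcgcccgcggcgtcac

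CACGTG was found in 3 of the 8 promoters, Klf4, Klf6 and, at 2 places, Klf15, beside 6.02% of 32851 promoters of the same length. ACGTG, the core of the site that hypoxia-inducible factors bind and a part of CACGTG on both strands, was found in 4 of 8 (16.6% of all promoters), and its form GCGTG in 5 of 8 (28.2%). The GC box GGGCGG was in 7 of 8 (32.7%), the CACCC box in 6 of 8 (52%), and TAAATTTA in 1 of 8, Klf2 (0.502%). Both strands were searched. These are matches of letters in a window, with no measure of binding. The 8 windows hold 59.2% (Klf7) to 78.4% (Klf3) G and C, and the part of this base composition in the shares was not tested.

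Hypoxia raised 7 of the 10 genes in the WT line and 3 in the KO line with vehicle. A gene is called here, and said to rise, fall, be higher or be lower, where edgeR's quasi-likelihood test gave a Benjamini-Hochberg false discovery rate (FDR) under 0.05 over all genes tested. In WT cells with vehicle, Klf2, Klf3, Klf4, Klf5, Klf6, Klf7 and Klf10 rose and Klf15 fell, 8 of 10 beside 68.1% of all genes called (32.8% higher, 35.3% lower). The median log2 change of the 10 was 1.04, and that of all genes tested was -0.03. In WT cells with POVPC the same 7 genes rose, and Klf9 and Klf15 fell, beside 66.1% of all genes called (31.8% higher, 34.3% lower). In KO cells with vehicle Klf3, Klf4 and Klf6 rose and Klf7, Klf13 and Klf15 fell, beside 65.4% (32.6% higher, 32.8% lower), with a median of 0.13. In KO cells with POVPC Klf2, Klf3, Klf4, Klf6 and Klf9 rose and Klf13 and Klf15 fell, beside 68.5% (34.5% higher, 33.9% lower). Counts of called members in either direction were close to these backgrounds, so what follows concerns which genes moved and by how much. Whether normoxic and hypoxic cultures were grown and sequenced together is not stated in the labels used here.

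**Figure D2:**
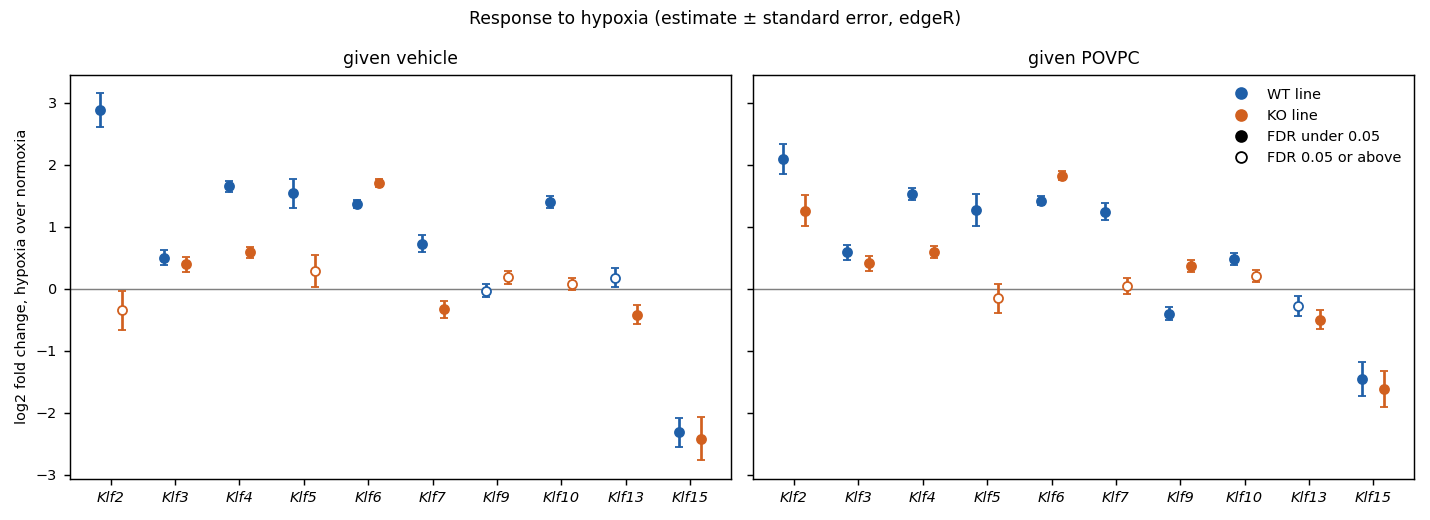
Log2 fold change of hypoxia over normoxia with its standard error (vertical axis) for each gene in the WT (blue) and KO (orange) line, with vehicle (left) and with POVPC (right), filled where the FDR was under 0.05. Klf2, Klf4, Klf5, Klf7 and Klf10 lie higher in the WT line, Klf6 rises in both lines, and Klf15 falls in both.

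The response to hypoxia differed between the lines for 7 of the 10 genes with vehicle, beside 39.1% of all genes (19.2% higher, 19.9% lower). This was tested as the KO response minus the WT response, and was lower in KO for Klf2, Klf4, Klf5, Klf7, Klf10 and Klf13 and higher for Klf6. With POVPC it differed for 5, lower in KO for Klf4, Klf5 and Klf7 and higher for Klf6 and Klf9, beside 30% of all genes (15.7% higher, 14.4% lower). Between the lines themselves, KO cells in vehicle and normoxia had 6 genes higher (Klf2, Klf3, Klf4, Klf7, Klf10, Klf13) and 2 lower (Klf9, Klf15), beside 60.6% of all genes (29.8% higher, 30.8% lower). With POVPC in normoxia 5 were higher (Klf3, Klf4, Klf5, Klf7, Klf13) and 3 lower (Klf6, Klf9, Klf15), beside 60.2% (29.5% higher, 30.7% lower). In hypoxia with vehicle 2 were higher (Klf4, Klf6) and 5 lower (Klf2, Klf5, Klf9, Klf10, Klf15), beside 59.9% (29.5% higher, 30.4% lower). With POVPC 2 were higher (Klf3, Klf4) and 3 lower (Klf2, Klf10, Klf15), beside 57.6% (30% higher, 27.6% lower). Klf4 was higher and Klf15 lower in KO than in WT cells in all 4 conditions. All 4 compare the same pair of lines, and the share of all genes called the same way in all 4 was not counted. The Klf15 call with POVPC in hypoxia was lost when some libraries were left out, as given with that gene.

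**Figure D3:**
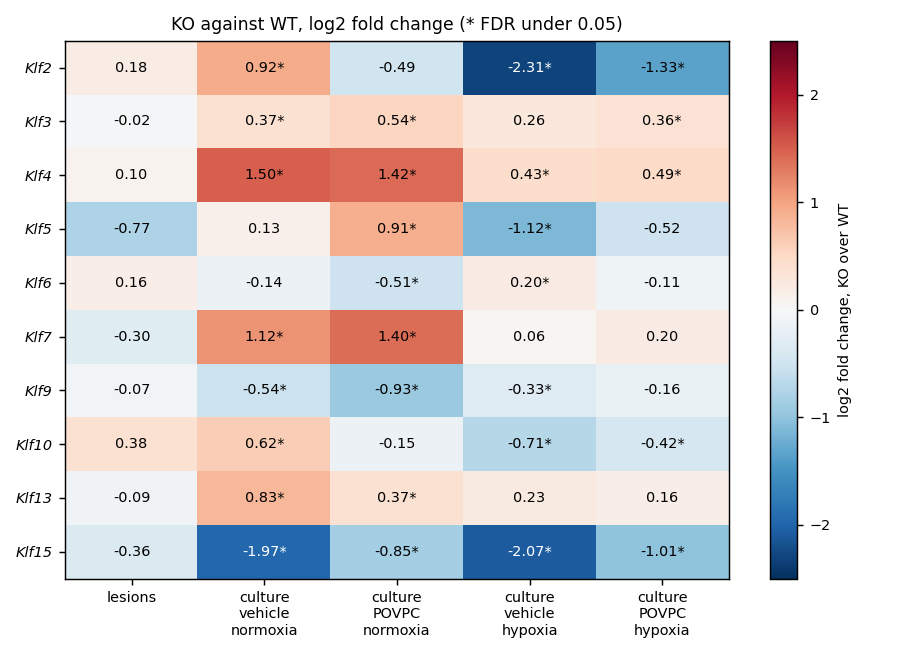
Log2 fold change of KO over WT for each gene (rows) in the arteries and in the 4 culture conditions (columns), red higher and blue lower in KO, with an asterisk where the FDR was under 0.05. Klf4 is positive and Klf15 negative with an asterisk in all 4 culture columns, and no gene has one in the arteries.

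POVPC changed 7 of the 10 genes in WT cells in normoxia, beside 26.9% of all genes (13.1% higher, 13.8% lower): Klf2, Klf4, Klf6, Klf9, Klf10 and Klf13 rose and Klf15 fell. In hypoxia 3 rose in WT cells (Klf2, Klf6, Klf7), beside 21% (8.22% higher, 12.7% lower). In KO cells in normoxia edgeR called 0 of 10, beside 0.0414% of all genes (0.0069% higher, 0.0345% lower), and DESeq2 also called 0. At an unadjusted edgeR p under 0.05 stood 1 of 10 (Klf4), with no share of all genes set beside it, so nothing is read from that count. In KO cells in hypoxia 2 rose (Klf2, Klf7), beside 4.06% (1.97% higher, 2.09% lower). Summed contractile genes stood at 1542 to 1612 CPM with vehicle and 883 to 995 with POVPC in those normoxic WT cells, and summed macrophage markers stood at 29.5 to 32.3 and 53.6 to 63.9 CPM. Of the 9 macrophage genes, 4 had no count there with vehicle and 5 had none with POVPC. Rn45s took 3.23% to 11.1% of counts with POVPC there and 1.31% to 1.5% with vehicle. Their part in the Klf values was not tested. Leaving out WT POVPC normoxia library 1 ended the Klf4 call, and leaving out library 3 ended none of the 7. The POVPC response itself differed between the lines for 4 genes in normoxia, lower in KO for Klf2, Klf6 and Klf10 and higher for Klf15, beside 16.2% of all genes (8.17% higher, 8% lower). In hypoxia it differed for 1, Klf6 (lower in KO), beside 9.37% (5.89% higher, 3.48% lower).

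**Figure D4:**
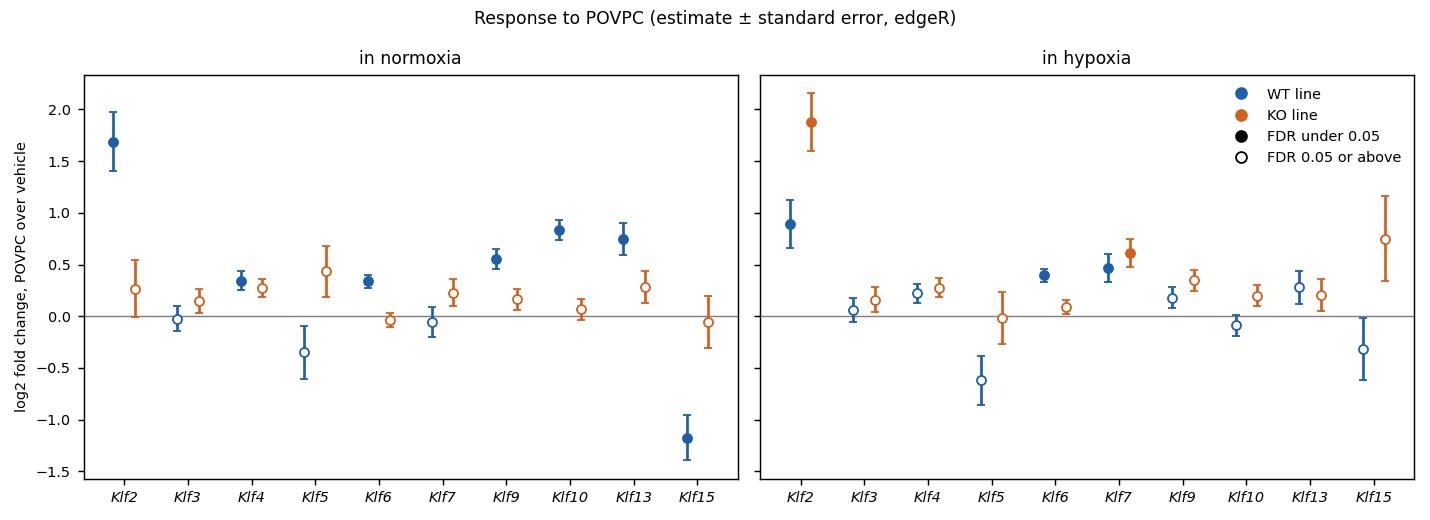
Log2 fold change of POVPC over vehicle with its standard error (vertical axis) for each gene in the WT (blue) and KO (orange) line, in normoxia (left) and hypoxia (right), filled where the FDR was under 0.05. In normoxia 7 genes are filled in the WT line and none in the KO line, and in hypoxia Klf2 and Klf7 are filled in both.

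Klf4, the opponent of the contractile program, was higher in the KO line throughout and rose with low oxygen in both lines. In vehicle and normoxia its 3 WT libraries held 75.1, 78.5 and 76.7 CPM and its 3 KO libraries 185, 221 and 243. The groups did not overlap, and Klf4 (mm9 chr4:55540009-55545347, - strand) was 2.82-fold higher in KO (log2 1.5 ± 0.09, SE, FDR 2.86e-14). In hypoxia with vehicle the WT libraries held 228, 231 and 265 CPM and the KO libraries 351, 321 and 304. All KO libraries were again above all WT libraries, but by 1.35-fold (0.43 ± 0.09, FDR 0.00016). With POVPC the KO excess was 2.68-fold in normoxia and 1.4-fold in hypoxia (FDR 7.82e-14 and 4.08e-05). The latter was 0.32 (log2, FDR 0.0404) instead of 0.49 without the 3 shallowest libraries.

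Hypoxia raised Klf4 3.14-fold in WT and 1.5-fold in KO cells with vehicle. The KO response was smaller by 1.06 ± 0.13 on the log2 scale (FDR 1.15e-07), and with POVPC by 0.94 ± 0.13 (FDR 1.55e-06), so that the lines were closer together in hypoxia than in normoxia. POVPC raised Klf4 1.27-fold in WT cells in normoxia (0.35 ± 0.09, FDR 0.00483), from 76.8 ± 1.7 to 97.5 ± 12 CPM. That call was lost without WT POVPC normoxia library 1 (FDR 0.0562) and with libraries scaled by their size alone (0.23, FDR 0.15). In KO cells the POVPC change was 0.27 ± 0.09 and not called (FDR 0.649), but was called without KO vehicle normoxia library 3 (0.37, FDR 0.0429). The POVPC responses of the lines differed by -0.07 ± 0.13 in normoxia (FDR 0.788).

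In RPKM the order of the Klf4 levels was KO POVPC hypoxia (130 ± 4.4, SD, n = 3), KO vehicle hypoxia (107 ± 7.9), WT POVPC hypoxia (92.4 ± 7.9), KO POVPC normoxia (85.9 ± 2.0), WT vehicle hypoxia (79.2 ± 6.7), KO vehicle normoxia (71.1 ± 9.8), WT POVPC normoxia (32.0 ± 3.9) and WT vehicle normoxia (25.2 ± 0.56). Libraries of neighbours in this order were apart at the top, between KO vehicle normoxia and WT POVPC normoxia, and at the bottom. The other 4 pairs of neighbours overlapped. Arteries held 19.6 ± 1.8 (KO) and 18.3 ± 1.9 RPKM (WT, n = 4).

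Klf5, which drives proliferation of smooth muscle cells after injury, lies at mm9 chr14:99697910-99712628 (+ strand) and was a low-level gene in all groups. The WT cells with vehicle held 3.28, 3.56 and 4.55 CPM in normoxia and 8.23, 10.7 and 14.2 in hypoxia. These did not overlap, a rise of 2.91-fold (1.54 ± 0.23, FDR 1.56e-06). The KO cells with vehicle held 2.31, 3.90 and 6.09 CPM in normoxia and 5.23, 4.76 and 5.30 in hypoxia. The KO libraries overlapped, with a change of 0.29 ± 0.25 that was not called (FDR 0.328). It was called without KO vehicle normoxia library 3, the highest of its group (0.69, FDR 0.0203). The hypoxia response was lower in KO by 1.25 ± 0.35 on the log2 scale with vehicle (FDR 0.00487) and by 1.43 ± 0.35 with POVPC (FDR 0.00253). KO cells had more Klf5 than WT cells with POVPC in normoxia (1.88-fold, FDR 0.00255) and less with vehicle in hypoxia (2.18-fold lower, FDR 0.000213). With POVPC in hypoxia the difference was not called (-0.52 ± 0.25, FDR 0.0763), but was without KO POVPC hypoxia library 1 (-0.82, FDR 0.0124). POVPC changed Klf5 in neither line by the FDR, with the largest difference in WT hypoxia (-0.62 ± 0.24, FDR 0.0627). That difference was called with the replicate number as a block (FDR 0.0409), without the filter (FDR 0.0484) and without WT vehicle hypoxia library 1 (FDR 0.0263).

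The order of the Klf5 levels was WT vehicle hypoxia (6.4 ± 1.8 RPKM, SD, n = 3), WT POVPC hypoxia (4.11 ± 0.52), KO POVPC normoxia (3.25 ± 0.21), KO vehicle hypoxia (2.96 ± 0.17), KO POVPC hypoxia (2.91 ± 0.87), KO vehicle normoxia (2.38 ± 1.1), WT vehicle normoxia (2.20 ± 0.39) and WT POVPC normoxia (1.73 ± 0.062). Libraries of neighbours were apart among the first 3 groups and between the last 2, and the other 4 pairs of neighbours overlapped. Klf4 and Klf5 ranked the groups differently, with Klf4 highest in the KO line and Klf5 in the WT line.

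Klf2, the flow-responsive factor of endothelium, showed the largest rise of the 10 genes. The WT cells with vehicle held 1.08, 1.30 and 1.88 CPM in normoxia and 8.58, 9.61 and 13.3 in hypoxia, a rise of 7.4-fold (2.89 ± 0.27, FDR 4.04e-10). The KO cells with vehicle held 2.56, 1.97 and 3.50 CPM in normoxia and 2.45, 1.43 and 2.65 in hypoxia. The WT groups were far apart and the KO groups overlapped (-0.35 ± 0.31, FDR 0.327). The difference between the responses was -3.24 ± 0.41 (FDR 4.32e-07), and it left KO cells 4.97-fold lower than WT cells in hypoxia with vehicle (FDR 5.73e-08). With POVPC Klf2 rose with hypoxia in both lines, 4.27-fold in WT and 2.39-fold in KO cells (FDR 2.95e-08 and 7.6e-05), and that difference of responses was not called (-0.83 ± 0.35, FDR 0.0728), but was with the replicate number as a block (FDR 0.0252), with halved counts (FDR 0.0485), and without WT POVPC hypoxia library 1 (FDR 0.0426) or WT POVPC normoxia library 3 (FDR 0.011).

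POVPC raised Klf2 in WT cells 3.21-fold in normoxia (3.70, 3.59 and 6.58 CPM with POVPC, FDR 4.28e-05) and 1.85-fold in hypoxia (15.4, 22.5 and 20.9 CPM, FDR 0.00621). The latter FDR was 0.0536 without the 3 shallowest libraries. In KO cells it rose 3.67-fold in hypoxia, to 8.18, 6.14 and 8.98 CPM (FDR 0.000177), and in normoxia its change was not called (3.08, 3.81 and 2.83 CPM, 0.27 ± 0.27, FDR 0.791). The difference of the POVPC responses in normoxia, -1.42 ± 0.40 (FDR 0.0129), was lost without WT POVPC normoxia library 3 (FDR 0.0544) or KO vehicle normoxia library 3 (FDR 0.0526). The KO excess in vehicle and normoxia, 1.9-fold (FDR 0.00992), was lost without WT vehicle normoxia library 1 (FDR 0.0518) or KO vehicle normoxia library 3 (FDR 0.0891). The Klf2 counts behind these values ran from 26 to 535 per library.

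Klf6, an early response gene of injury, rose with hypoxia in both lines, more in KO cells, and was the most abundant member in 8 of 10 groups. With vehicle it went from 205, 202 and 199 to 557, 494 and 510 CPM in WT cells, 2.57-fold (FDR 6.83e-17). In KO cells it went from 180, 187 and 183 to 608, 594 and 588 CPM, 3.25-fold (FDR 8.04e-19). No library overlapped in either line, and the KO response was higher by 0.34 ± 0.09 (log2, FDR 0.00478), a call that was lost without the filter on low counts (FDR 0.095). With POVPC the KO response was higher by 0.40 ± 0.09 (FDR 0.00132). POVPC raised Klf6 in WT cells 1.26-fold in normoxia and 1.32-fold in hypoxia (FDR 0.000215 and 5.95e-05), and in KO cells the log2 changes were -0.04 ± 0.07 and 0.09 ± 0.07, neither called. The differences of these responses were -0.37 ± 0.09 (FDR 0.00493) and -0.31 ± 0.09 (FDR 0.0343). Scaling by library size alone, which lowered the median of all genes by 0.13 in the WT POVPC response in normoxia and raised that of its line difference by 0.20, ended the Klf6 calls there (FDR 0.105 and 0.372). In hypoxia the line difference was lost without any 1 of 6 libraries (FDR 0.0655 to 0.121), and without the 3 shallowest (FDR 0.254). KO cells had more Klf6 in vehicle and hypoxia (1.15-fold, FDR 0.0109, but 0.0613 without WT vehicle hypoxia library 2) and less with POVPC in normoxia (1.43-fold lower, FDR 1.1e-07). With POVPC in hypoxia the difference of -0.11 ± 0.07 was not called (FDR 0.159), but was without KO POVPC hypoxia library 1 (-0.17, FDR 0.0475) and with RLE size factors (-0.16, FDR 0.0387).

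Klf10, the TGF-beta-inducible member, rose in the WT line with hypoxia, and with POVPC in normoxia, and was called for neither in the KO line. With vehicle the WT libraries went from 36.8, 37.6 and 37.7 CPM in normoxia to 104, 94.9 and 96.4 in hypoxia, 2.64-fold (FDR 4.9e-13). The KO libraries went from 56.1, 56.3 and 59.5 to 62.0, 63.2 and 55.0 CPM (0.07 ± 0.10, FDR 0.542). The WT groups were apart and the KO groups overlapped, with a difference of responses of -1.33 ± 0.14 (FDR 1.17e-08). POVPC in normoxia raised Klf10 in WT cells to 66.5, 63.8 and 69.4 CPM, 1.78-fold (FDR 1.4e-07), and in KO cells the libraries held 58.4, 64.8 and 56.9 (0.07 ± 0.10, FDR 0.862). The responses differed by -0.77 ± 0.14 (FDR 0.000193). In hypoxia the POVPC change of Klf10 was not called in WT (-0.09 ± 0.10, FDR 0.583) or KO cells (0.20 ± 0.10, FDR 0.3). The hypoxia change in KO cells with POVPC was not called either (0.20 ± 0.10, FDR 0.0698), but was without KO POVPC hypoxia library 1 (FDR 0.0488), KO POVPC normoxia library 2 (FDR 0.0445) or the 3 shallowest libraries (FDR 0.0285). KO cells thus had 1.53-fold more Klf10 in vehicle and normoxia (FDR 5.21e-06), and 1.63-fold less in vehicle and hypoxia (FDR 5.32e-07). With POVPC the hypoxia rise in WT cells was 0.48 ± 0.10 (FDR 0.000131), or 0.74 without the 3 shallowest libraries. The difference of the responses there, not called (-0.27 ± 0.14, FDR 0.147), was called without those libraries (-0.56, FDR 0.00102) or without WT POVPC hypoxia library 2 alone (-0.46, FDR 0.00283). The KO deficit with POVPC in hypoxia was 1.34-fold (FDR 0.000651, log2 -0.42), -0.70 without the 3 shallowest libraries and -0.27 without WT POVPC hypoxia library 3.

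Klf15, which is high in quiescent muscle and answers to glucocorticoids, fell with hypoxia in both lines, and with POVPC in normoxic WT cells. Its WT libraries held 7.63, 7.89 and 7.73 CPM in vehicle and normoxia, 2.89, 3.51 and 3.91 with POVPC, and 1.61, 2.14 and 1.02 with vehicle in hypoxia. Its KO libraries held 1.85, 2.19 and 1.87 CPM in vehicle and normoxia and 0.422, 0.381 and 0.204 in vehicle and hypoxia, the last from 10, 8 and 2 counts. The WT cells in vehicle and normoxia were above every other group. Klf15 was 3.92-fold lower in KO in vehicle and normoxia (FDR 2.02e-08) and 4.21-fold lower in vehicle and hypoxia (FDR 1.11e-05). Hypoxia lowered it 5-fold in WT and 5.36-fold in KO cells with vehicle (FDR 8.33e-10 and 5.61e-07), and the responses differed by -0.10 ± 0.40 (FDR 0.866), an interval too wide to show that they were alike. POVPC lowered it 2.26-fold in WT cells in normoxia (FDR 0.000111), while the KO change was -0.06 ± 0.25 (FDR 0.963). The difference of 1.12 ± 0.33 (FDR 0.018) was lost without WT POVPC normoxia library 1 (FDR 0.0531) or KO POVPC normoxia library 2 (FDR 0.0544). The KO deficit with POVPC in hypoxia (2.02-fold, FDR 0.0125) was lost without KO POVPC hypoxia library 1 (FDR 0.0733) and without the 3 shallowest libraries (FDR 0.107).

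Klf9, the other member that answers to glucocorticoids, was lower in KO cells in 3 of 4 conditions. In vehicle and normoxia the WT libraries held 36.2, 35.0 and 34.1 CPM and the KO libraries 20.5, 25.2 and 26.5, with no overlap (1.46-fold lower, FDR 4.03e-05). POVPC in normoxia raised it in WT cells to 51.9, 49.1 and 53.5 CPM (1.47-fold, FDR 8.05e-05), and the KO deficit became 1.9-fold (FDR 4.54e-09). Hypoxia left Klf9 at 36.5, 31.3 and 35.2 CPM in WT cells with vehicle (-0.03 ± 0.10, FDR 0.812). With POVPC it fell in WT cells (-0.40 ± 0.10, FDR 0.00107) and rose in KO cells (0.37 ± 0.10, FDR 0.00215), and these responses differed by 0.77 ± 0.14 (FDR 0.000122).

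Klf7, known for neurons and fat, was called higher in KO cells in both normoxic conditions and in neither hypoxic one. It held 6.91, 8.81 and 7.05 CPM in WT and 14.5, 15.4 and 19.5 in KO cells in vehicle and normoxia, 2.17-fold higher in KO without overlap (FDR 4.15e-08). In vehicle and hypoxia the WT libraries held 11, 13.1 and 13.6 CPM and the KO libraries 13.6, 11.8 and 14. Those overlapped (0.06 ± 0.14, FDR 0.74). The hypoxia response was lower in KO by 1.06 ± 0.19 with vehicle (FDR 6.36e-05) and by 1.20 ± 0.19 with POVPC (FDR 1.55e-05). The fall of Klf7 in hypoxic KO cells with vehicle (-0.33 ± 0.14, FDR 0.0332) was lost without KO vehicle normoxia library 3 (-0.20, FDR 0.244) or KO vehicle hypoxia library 2 (FDR 0.145). POVPC raised Klf7 in hypoxia 1.38-fold in WT and 1.52-fold in KO cells (FDR 0.0154 and 0.00785). The WT call was lost without WT vehicle hypoxia library 1 (FDR 0.0968), WT POVPC hypoxia library 2 (FDR 0.0541) or the 3 shallowest libraries (FDR 0.289). The KO call was lost without KO vehicle hypoxia library 2 (FDR 0.0739) or KO POVPC hypoxia library 3 (FDR 0.056).

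Klf3, a CtBP-recruiting repressor, and Klf13 had narrow ranges in culture, as did Klf9. Klf3 held 56.0, 66.7 and 59.4 CPM in WT and 63.6, 80.6 and 91.1 in KO cells in vehicle and normoxia. The libraries overlapped, and the 1.29-fold excess (FDR 0.00868) was lost without KO vehicle normoxia library 3 (0.25, FDR 0.0792) and with scaling by library size (0.23, FDR 0.165). With POVPC in normoxia Klf3 was 1.45-fold higher in KO without overlap (FDR 0.000347). Its 1.29-fold excess with POVPC in hypoxia (FDR 0.0111) was lost without WT POVPC hypoxia library 1 (FDR 0.0558) or 2 (FDR 0.0559), KO POVPC hypoxia library 1 (0.22, FDR 0.138) or the 3 shallowest libraries (0.20, FDR 0.34). Klf3 rose with hypoxia in all 4 pairs of groups, by 0.39 to 0.59 (log2); with vehicle the rise in WT cells was 0.33 instead of 0.50 with scaling by library size, which lowered the median of all genes by 0.21, and that in KO cells 0.26 instead of 0.39 without KO vehicle normoxia library 1.

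Klf13 held 36.4, 32.6 and 29.1 CPM in WT and 44.4, 55.2 and 74.5 in KO cells in vehicle and normoxia, 1.78-fold higher in KO (FDR 9.17e-05), and POVPC raised it 1.67-fold in WT cells (FDR 0.000907). The KO excess with POVPC in normoxia (1.29-fold, FDR 0.0423) was lost without any 1 of 4 libraries, WT 2 and 3 and KO 1 and 2 (FDR 0.0855 to 0.163), and without the filter (FDR 0.0753). Its fall with hypoxia in KO cells with vehicle (-0.42 ± 0.16, FDR 0.024) was lost without KO vehicle normoxia library 3 (-0.20, FDR 0.229), or KO vehicle hypoxia library 2 (FDR 0.0655) or 3 (FDR 0.0501). Its line difference in that response (-0.60 ± 0.22, FDR 0.0377) was lost without any 1 of 7 libraries, most without KO vehicle normoxia library 3 (-0.38, FDR 0.118).

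Among the 10 genes the group means of log2 CPM over the 8 culture groups were most alike for Klf3 and Klf4 (Pearson r 0.966), and Klf2 and Klf10 (0.895), and most opposed for Klf4 and Klf15 (-0.927). Among 9608 genes with at least 5 CPM, the 5 with the pattern most like Klf4 were Add3 (r 0.989), Ccdc124 (0.985), Xpnpep1 (0.984), Fbl (0.984) and Tkt (0.981). The 5 most like Klf5 were Myo10 (0.959), Me1 (0.938), Acot7 (0.935), Ehd4 (0.931) and Pctp (0.929). These are descriptions over 8 group means that share their libraries and depth.

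Of the 7 other Klf genes 4 were tested in culture. Klf11, a TGF-beta-inducible relative of Klf10, went the other way from Klf10 in hypoxia in WT cells with vehicle. It fell there from 15.8 ± 1.0 to 7.90 ± 0.82 CPM (SD, n = 3, FDR 1.24e-08). In KO cells with vehicle it fell from 29.5 ± 2.6 to 8.5 ± 1.2 (FDR 1.21e-13), where the Klf10 change was not called. Klf12, a repressor close to Klf3 and Klf8, fell too (-2.11 ± 0.45, FDR 0.000144, in WT, and -2.96 ± 0.41, FDR 3.29e-07, in KO). Its levels were low, at 0.996 ± 0.24 CPM in normoxic and 0.249 ± 0.18 in hypoxic WT cells, the latter from 2 to 8 counts. In KO cells they were 2.90 ± 0.099 and 0.372 ± 0.075 CPM, the latter from 4 to 10 counts. Klf16 rose from 23 ± 0.53 to 46.1 ± 0.72 CPM in WT cells (FDR 3.47e-11). Klf8, the last of those tested, stood in arteries at 9.53 ± 1.95 CPM in KO and 10.6 ± 1.29 in WT (SD, n = 4). Klf1, Klf14 and Klf17 were not tested in either table, and held 0 to 5 counts per artery. Of the related Sp factors, which bind the same GC boxes, 4 of 6 tested fell with hypoxia in WT cells with vehicle and none rose, a share called near the 68.1% of all genes (35.3% lower), among them Sp1 (-0.37 ± 0.07) and Sp3 (-0.53 ± 0.06). The median of the 6 was -0.45, that of the 10 KLFs 1.04 and that of all genes -0.03.

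Genes that act with or after the KLFs were followed by lists. The smooth muscle contractile list had 11 genes tested in culture. In WT cells with vehicle 10 fell and 1 rose with hypoxia, beside 35.3% of all genes lower and 32.8% higher (median log2 change -2.70), among them Lmod1 (-3.18 ± 0.17), Mylk (-2.70 ± 0.21) and Cald1 (-2.36 ± 0.11), all parts of the contractile apparatus. POVPC in normoxia lowered 9 and raised 1 in WT cells, beside 13.8% of all genes lower and 13.1% higher, with Acta2 from 263 ± 26 to 60.0 ± 7.1 CPM and the exception Smtn from 36.3 ± 1.6 to 103 ± 11. In KO against WT cells in vehicle and normoxia 8 were lower and 1 higher, beside 30.8% and 29.8% of all genes (median -2.17), again Smtn (1.28 ± 0.14). These 3 comparisons share their WT vehicle normoxia libraries, in which Klf4 was lowest and Klf15 highest. Myocd, the coactivator that KLF4 opposes, stood at 0.629 ± 0.39 CPM there and at 0.0342 ± 0.059 in KO cells (FDR 0.000924).

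Of the list of vascular KLF2 and KLF4 targets 6 were tested in culture, and 5 were lower and 1 higher in KO in vehicle and normoxia, beside 30.8% and 29.8% of all genes. Thbd (thrombomodulin, which KLF2 and KLF4 are known to raise in endothelium) held 987 ± 18 CPM in WT and 1.58 ± 0.12 in KO cells (-9.28 ± 0.15, FDR 2.54e-27), in the comparison in which Klf2 and Klf4 were higher in KO. Vcam1, an adhesion molecule that they are known to lower, was 657 ± 12 and 158 ± 4.5 CPM (FDR 1.36e-19). The list thus mixes genes that these factors raise and lower, and its counts carry no single direction. The Klf2 call in this comparison was lost when some single libraries were left out, as given with that gene. With hypoxia in WT cells with vehicle 2 of the 6 rose and 2 fell, a share near the 68.1% of all genes called: Edn1 (endothelin) rose from 2.73 ± 0.60 to 11.2 ± 1.5 CPM while Thbd fell (-0.65 ± 0.10, FDR 1.03e-06). Of the KLF5 target list 5 were tested, and 3 rose and 1 fell in that comparison, beside 32.8% of all genes higher and 35.3% lower, with Ccnd1 (cyclin D1) going from 439 ± 50 to 1070 ± 83 CPM.

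HIF targets marked the hypoxia itself in both lines: with vehicle 9 of 10 rose in WT (median 4.08) and in KO cells (median 3.66), beside 32.8% and 32.6% of all genes higher, for example Pgk1 by 4.86 ± 0.09 and 4.18 ± 0.08. Of 11 immediate early genes, 8 rose and 2 fell in WT cells with vehicle (median 1.19), beside 32.8% and 35.3% of all genes, against 2 and 3 in KO cells (median 0.03), beside 32.6% and 32.8%. Ier3 went from 15.4 ± 0.78 to 143 ± 6.2 CPM in WT and from 20.1 ± 1.1 to 22.8 ± 0.57 in KO cells (difference of responses -3.02 ± 0.12, FDR 1.6e-17). Junb rose in WT cells (1.67 ± 0.10), with a difference of responses of -1.64 ± 0.14 (FDR 9.32e-11). The line difference of the hypoxia response with vehicle was lower in KO for 8 of 11 immediate early genes and higher for 2, lower for 6 and higher for 1 of 9 TGF-beta early genes, and lower for 6 and higher for 1 of 10 HIF targets, beside 19.9% of all genes lower and 19.2% higher.

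In the glucocorticoid list 5 of 7 genes rose and 1 fell with hypoxia in WT cells with vehicle, where 32.8% of all genes rose and 35.3% fell (Sgk1 by 3.55 ± 0.09 and Tsc22d3 by 1.71 ± 0.09), while Klf15 fell and Klf9 was not called. Nr3c1, the receptor itself, fell (-1.09 ± 0.07, FDR 9.52e-15). In the MEF2 and ERK5 list 2 of 8 rose and 4 fell, a share near the 68.1% of all genes called, with Mef2a falling from 97.6 ± 4.4 to 39.3 ± 4.2 CPM in the comparison in which Klf2 rose. In KO against WT cells in vehicle and normoxia, Mef2c was 51.7 ± 2.9 against 0.286 ± 0.22 CPM (7.52 ± 0.30, FDR 1.9e-16). Of the ubiquitin ligases known to act on KLF proteins, Wwp1 fell (-0.50 ± 0.08), Fbxo32 fell (-2.0 ± 0.11) and Smurf1 and Vhl rose (0.76 ± 0.11 and 1.37 ± 0.09) with hypoxia in WT cells with vehicle. That list has 5 genes, of which Fbxw7 is not described, and 68.1% of all genes were called in that comparison. Of the 8 corepressors 2 rose and 3 fell there, near the same background, with changes of at most 0.52 in size among those named by the rule: Ctbp1 (0.34 ± 0.06), Sin3a (-0.45 ± 0.08), Sin3b (0.50 ± 0.06) and Hdac1 (-0.52 ± 0.13).

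In the arteries edgeR called 0 of the 10 genes, as it called 0 of all 14993 genes tested, which is 0% of them. At an unadjusted p under 0.05 stood 2 of the 10 (Klf10, Klf15), beside 14.8% of all genes. DESeq2 called 1 of the 10 and 441 genes in all. Klf10 held 58.8, 63.0, 68.8 and 71.7 CPM in the 4 KO animals and 46.5, 52.2, 49.5 and 53.1 in the 4 WT animals. Every KO animal was above every WT animal, as for 5.47% of all genes (groups apart in either direction for 8.8%), by 1.3-fold (0.38 ± 0.09, edgeR FDR 0.17, DESeq2 adjusted p 0.021). Klf15 held 16.1, 24.6, 21.3 and 21.9 CPM in KO and 32.8, 24.6, 23.7 and 26.6 in WT animals, which overlapped (-0.36 ± 0.15, FDR 0.312). Klf4 held 55.2, 55.0, 61.4 and 66.5 CPM in KO and 63.6, 55.6, 54.1 and 49.6 in WT animals (0.10 ± 0.10, FDR 0.698). Klf5 rested on 2 to 23 counts per animal (1.20 ± 0.85 and 1.96 ± 0.54 CPM, SD, n = 4, FDR 0.518). The remaining 6 lay between -0.30 ± 0.16 (Klf7, FDR 0.417) and 0.18 ± 0.15 (Klf2, FDR 0.608), and the median of the 10 was -0.05 beside -0.01 for all genes.

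**Figure D5:**
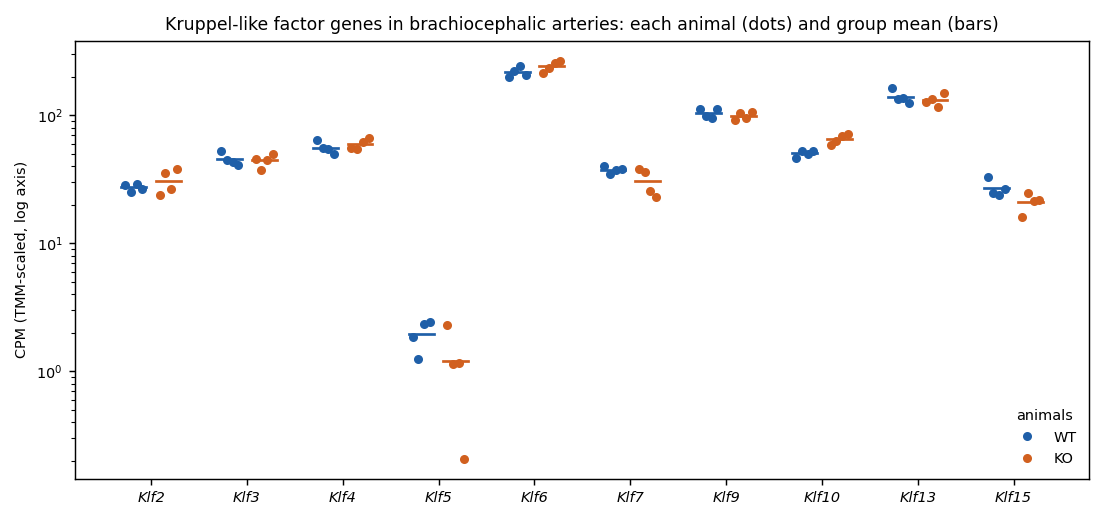
CPM of each gene (vertical axis, log scale) in each artery (dots) with the group mean (bars), WT animals in blue and KO animals in orange. The animals overlap for 9 genes, and the 4 KO animals lie above the 4 WT animals for Klf10.

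Markers of other cell types were summed in the same arteries. None of them passed the FDR, and their part in the Klf values was not tested. In whole tissue fewer cells of a type and less RNA per cell cannot be told apart. All 9 tested macrophage markers lay above 0 in KO against WT (median log2 difference 0.89), with summed levels of 3817 to 9095 CPM in KO and 2297 to 3466 in WT arteries. All 8 endothelial markers did so too (median 0.39, 1591 to 1864 against 1195 to 1462 CPM), and so did all 7 adipocyte markers (3553 to 5219 against 2623 to 3971 CPM, which overlap). All 12 contractile genes lay below 0 (median -0.43), with summed levels of 5678 to 8135 CPM in KO and 7824 to 12024 in WT arteries, which overlap, and all 6 tested striated muscle markers too (7.45 to 14.9 against 15.6 to 28.3 CPM). Fibroblast (4327 to 6684 against 3344 to 6573 CPM), lymphocyte (22 to 86.9 against 39.3 to 81.5) and nerve markers (271 to 510 against 371 to 526) overlapped too. The summed levels of the groups were apart for the macrophage, endothelial and striated muscle lists. The counts of markers above or below 0 have no share of all genes set beside them. Markers of the same cell type are also not separate observations, so nothing is read from those counts. How often the summed levels of lists of other genes are apart was not tested. No marker list had a gene without counts in either group of arteries.

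None of the pathway lists had a called gene in the arteries either. The lowest p-values among the factors that act with KLFs belonged to Myocd, at 52.5 ± 12 CPM in KO and 86.5 ± 7.6 in WT (-0.72 ± 0.15, FDR 0.17), and among contractile genes to Synpo2 (-0.51 ± 0.14, FDR 0.172) and Myh11 (-0.60 ± 0.16, FDR 0.172). Among the KLF2 and KLF4 targets they belonged to Nos3 (endothelial nitric oxide synthase, 80.0 ± 8.5 and 58.6 ± 11 CPM, FDR 0.198), and in the glucocorticoid list to Sgk1 (0.74 ± 0.19, FDR 0.172).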

How the data were processed

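RNA of 8 arteries and 24 cultures was sequenced, and the values deposited are whole-number counts for each gene, which the authors obtained from exons of UCSC mm9 genes with featureCounts 1.4.4 and no strand option, per the file headers. In arteries a fragment counted once if its mates were both mapped; in culture each mate counted, so culture counts are of reads and mates are not independent. The submitters' processing notes also name CASAVA, STAR, Subread and DESeq2. Samples were grouped by their labels. The tables were fitted apart with edgeR 4.0.16 in R 4.3.3 (filterByExpr by group with minimum count 10 and minimum total 15, TMM scaling, robust quasi-likelihood fits), the 24 cultures as 1 model of 8 groups. There were 14993 genes tested in arteries and 14496 in culture. The 17 comparisons were KO against WT in arteries, 12 pairs of culture groups and 4 interactions, 2-sided. SE is the size of the log2 change over the square root of F. RPKM is TMM-scaled CPM per kilobase of annotated exons. Annotated exons are short for Klf7 (1334 bases) and Klf5 (1725 bases), which bears on their RPKM, and none of the 10 genes shares exons with another gene.

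The members, lists and comparisons were chosen with earlier results of these data known. Named by rule were the 10 genes, the other Klf genes, of each other list up to 4 genes with the smallest p in each of 4 comparisons (KO against WT in arteries and in vehicle and normoxia, POVPC in normoxia and hypoxia with vehicle in WT cells), and the 5 genes most like Klf4 and Klf5. Values of these genes in other comparisons, and Acta2, Myh11 and Ier3 as examples, follow from it. Alternatives were RLE factors, library size alone, no filter, the replicate number as a block, DESeq2 1.42.0, each library left out, the 3 shallowest culture libraries left out, arteries KO 4 and WT 1 left out, and, chosen after seeing the data, halved culture counts. The steps were tested on simulated data.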

Additional observations from a re-analysis of the deposited data

Results flagged for a closer look

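Tests of whether the KO and WT lines differed in a response passed an FDR of 0.05 (edgeR) in 17 of 40 cases, and each is given as the KO response minus the WT response on the log2 scale. For hypoxia with vehicle these were Klf2 (-3.24), Klf4 (-1.06), Klf5 (-1.25), Klf6 (0.34), Klf7 (-1.06), Klf10 (-1.33) and Klf13 (-0.60), beside 39.1% of all genes called. For hypoxia with POVPC they were Klf4 (-0.94), Klf5 (-1.43), Klf6 (0.40), Klf7 (-1.20) and Klf9 (0.77), beside 30% of all genes. For POVPC in normoxia they were Klf2 (-1.42), Klf6 (-0.37), Klf10 (-0.77) and Klf15 (1.12), beside 16.2%, and for POVPC in hypoxia Klf6 (-0.31), beside 9.37%. The 40 tests reuse the same libraries and are not independent. Several of these calls were lost when single libraries were left out, as given with those genes. No single animal was flagged for any of the 10 genes in the 20 sets of 4 arteries examined. The rule was Dixon's Q, the gap of an animal to its neighbour over the range of its group. With 4 animals only an extreme gap can pass it, so this does not show that no animal stood apart. Klf5 in KO arteries, for example, ran from 0.206 to 2.28 CPM.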

How the results depend on the processing

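No called result of a Klf gene changed its direction in any alternative, and of 170 gene results under all alternatives (2456 values) 53 uncalled values changed sign. The number of the 10 genes called stayed within 1.5 times the value reported, except as follows. In the arteries DESeq2 called 1 against 0. For the line difference of the POVPC response in hypoxia, 1 as reported, the count was 0 without the filter, 0 without the 3 shallowest libraries, and 0 to 2 with each library left out. For POVPC in KO cells in normoxia it was 0 to 1 with each library left out (1 without KO vehicle normoxia library 3), and in KO cells in hypoxia 1 to 2. Without the 3 shallowest libraries it was 3 against 5 for KO against WT with POVPC in hypoxia, and 1 against 3 for POVPC in WT cells in hypoxia. The replicate block, which uses the replicate number of the labels, left 168 of 170 gene results on their side of the threshold and added the Klf5 and Klf2 calls given with those genes. The numbers were not taken as a pairing. Of same-numbered pairs, 29 of 84 in culture and 1 of 4 in arteries correlated over 0.1, and 7 of 24 and 1 of 8 libraries correlated best with their own number. The median correlation was 0.04 for same and -0.017 for different numbers in culture, and -0.099 and 0.068 in arteries. With so few libraries per group these values cannot exclude a pairing. Depth limits Klf5 in arteries and Klf15 in hypoxic KO cells, which rest on few counts.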
